A study of Mus musculus with 6 samples.

Results

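The cellular answer to low oxygen was followed through 9 genes in RNA sequencing of mouse blood monocytes. They were Hif1a, which encodes the oxygen-regulated subunit of hypoxia-inducible factor 1 (HIF-1), the prolyl hydroxylase genes Egln1 and Egln3, and 6 target genes outside glycolysis, Vegfa, Adm, Ndrg1, Bnip3, P4ha1 and Ankrd37. The genes were picked by symbol, and all 9 were found among the 56832 gene names of the count tables and were among the 12488 genes with enough counts to test. Of 6 libraries, 3 came from thrombocytopenic mice of genotype PF4cre-iDTR and 3 from control mice of genotype WT. Cells of both groups came from peripheral blood, and both groups carry the treatment entry Diptheria Toxin, so every animal is recorded as having received the toxin. In PF4cre-iDTR mice Cre recombinase, driven by the promoter of the platelet factor 4 gene Pf4, switches on a diphtheria toxin receptor, and the toxin then removes the cells that carry it, among them megakaryocytes and thereby platelets. Genotype and platelet state differ together between the groups and cannot be told apart. Age, sex, strain and the method of monocyte isolation are not given in the labels. Separate mice for the libraries within a group are not stated, and p-values therefore reflect the scatter of these 6 libraries, part or all of which may be technical.

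In oxygenated cells the EGLN prolyl hydroxylases modify HIF-1 alpha and HIF-2 alpha, the von Hippel-Lindau protein Vhl binds the modified form, and the proteasome destroys it. When oxygen falls the alpha subunit persists, joins Arnt and binds DNA at short elements with the core ACGTG or GCGTG, raising genes for glycolysis, blood vessel growth, mitophagy and collagen modification. Because control acts mainly on the protein, Hif1a RNA does not by itself report HIF activity. In monocytes and macrophages inflammatory signals also raise HIF-1 and Vegfa in the presence of oxygen.

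The files summed to 29883019 to 37552029 counts in the thrombocytopenic libraries and to 24842319 to 35955383 in the control libraries. Within each group every pair of libraries differed beyond counting noise (chi-square of 1.87 to 3.11 per degree of freedom), so none was treated as a copy. Of 8 monocyte markers all were detected, with a summed level of 16860 to 17152 CPM (counts scaled to a fixed library total) in thrombocytopenic and 14908 to 15376 CPM in control libraries, 5 higher and 3 lower. Macrophage markers were abundant too, at 7169 to 7386 CPM against 8143 to 8264 CPM, with 2 of 8 higher and 6 lower. For these and the marker counts below, the shares over all genes tested were 22.4% higher and 22.7% lower. Pf4 itself stood at 1094 ± 38.8 CPM in thrombocytopenic and 924 ± 23.4 CPM in control libraries (SD, n = 3 each), and whether the toxin receptor was made in the profiled cells was not tested. Basophil and mast cell markers summed to 1.32 to 2.24 CPM against 10.1 to 11.2 CPM. All 8 were detected and 6 had enough counts to test, and all 6 were lower. Of these, Mcpt8, Ms4a2, Prss34, Gata2 and Cd200r3 had enough counts only in the control libraries, so they could be called only as lower. The 13 platelet and megakaryocyte markers summed to 1221 to 1287 CPM against 1014 to 1060 CPM, most of it from Pf4 and Ppbp. Of 7 tested, these 2 were higher and the other 5 lower, and Gp1bb was at 0 everywhere. The 5 were Nrgn with 2 against 332 counts, Gp9 with 0 against 41, Clec1b with 75 against 317, Itga2b with 36 against 75 and Itgb3 with 79 against 128. Nrgn and Gp9 likewise had enough counts to test only in the control libraries. Of 8 dendritic cell markers, summing to 227 to 233 CPM against 304 to 321 CPM, 6 were tested, 5 lower and none higher. Of 10 neutrophil markers, summing to 9.60 to 14.3 CPM against 13.7 to 15.6 CPM, 5 were tested, 1 lower and none higher. Erythroid markers summed to 0 to 0.056 CPM against 1.89 to 2.42 CPM, mostly the globin gene Hba-a1 with 0 against 180 counts, and Alas2 and Slc4a1 were at 0 everywhere. The 10 T and NK cell markers summed to 0.293 to 0.468 CPM against 0.805 to 1.14 CPM. Only 1 of them, Cd8a, was tested, and it was lower, with Cd3e, Cd3d, Cd3g, Ncr1 and Nkg7 at 0 everywhere. Cd8a too had enough counts to test only in the control libraries. The 6 B cell markers summed to 1.07 to 1.67 CPM against 1.26 to 1.85 CPM. Only 1 of them, Cd79b, had enough counts to test, and it did not pass. Nonclassical monocyte markers summed to 603 to 628 CPM against 610 to 618 CPM, with 5 of 6 tested and 3 higher. Cx3cr1, a chemokine receptor gene, was the 1 lower, at 11.4 ± 0.373 CPM against 52.2 ± 1.09 CPM. The part of these other cells and monocyte subsets in the changes described here was not tested. In bulk RNA, fewer cells of a type and less RNA per cell cannot be told apart.

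Vegfa fell most among the 9 genes, to 3.40 ± 0.482 CPM against 21.1 ± 0.896 CPM (SD, n = 3 each), and Egln3 fell with it. P4ha1, Bnip3 and Hif1a were lower by smaller amounts. Ndrg1 rose, Adm rose at a very low level, and Egln1 and Ankrd37 did not pass the test. Thus 7 of 9 had an adjusted p under 0.05 in edgeR's quasi-likelihood test, 2 higher and 5 lower. Among all 12488 genes tested 45.1% passed, 22.4% higher and 22.7% lower. The median log2 fold change (thrombocytopenic over control) was -0.19 over the 9 genes and -0.00077 over all genes tested. The 3 thrombocytopenic libraries lay wholly below the control libraries for 5 of the genes and wholly above for 1, against 51.3% of all genes without overlap in either direction. At least 2-fold changes were seen in 2 of the 9, Vegfa and Egln3, and in 3.92% of all genes. The 9 genes were chosen with earlier results of these libraries known, so these counts describe them and do not test the list.

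**Figure D1:**
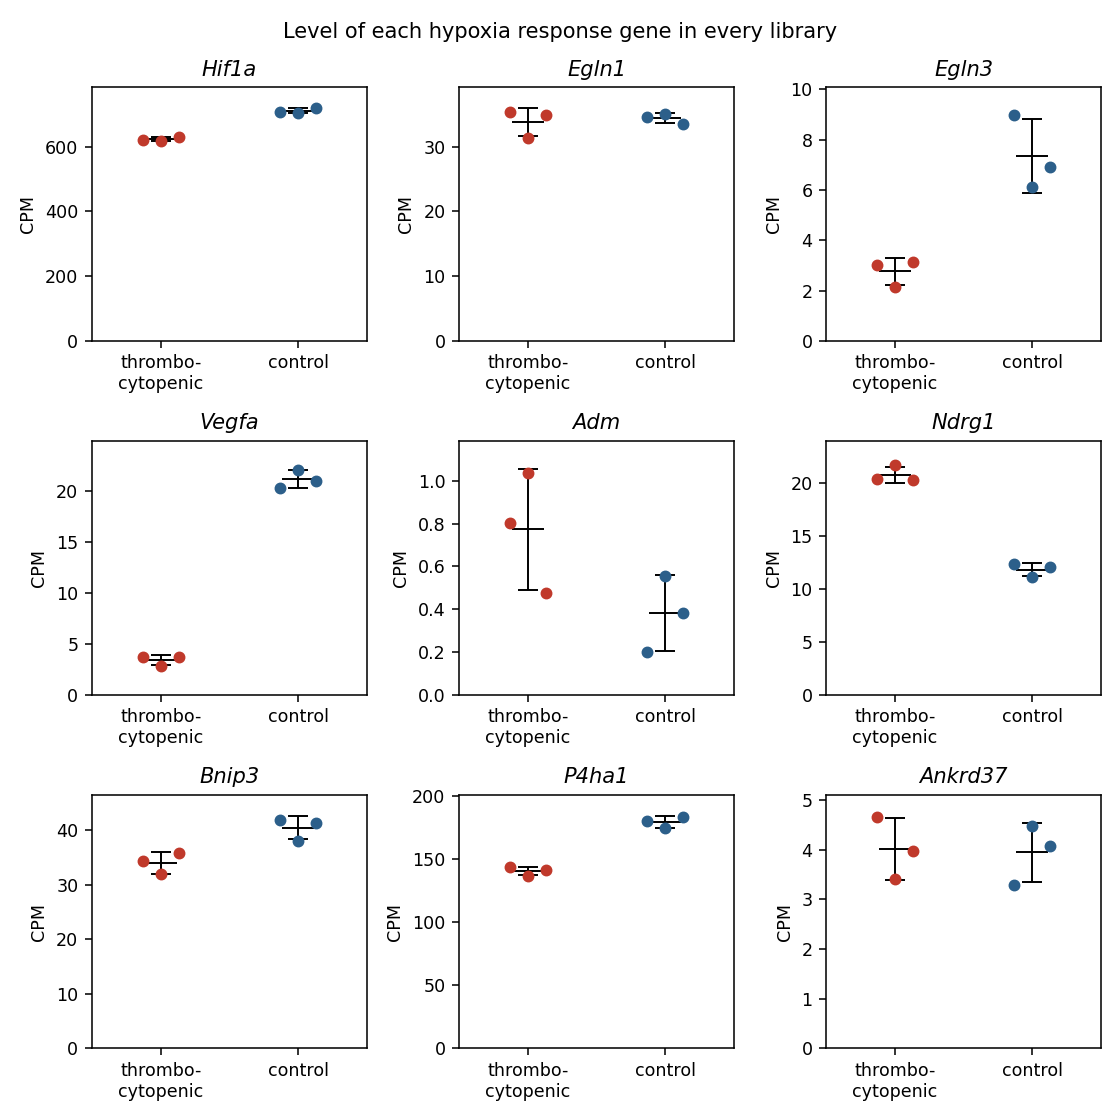
Level in CPM (scaled by TMM factors, each axis from 0) of the 9 genes in every library, with the mean and SD of 3 libraries per group as bars. Vegfa, Egln3, Hif1a, Bnip3 and P4ha1 were lower in all thrombocytopenic libraries than in any control library, Ndrg1 was higher, and Adm, Egln1 and Ankrd37 overlapped.

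The HIF-1 alpha gene itself changed little. Hif1a stood at 621, 618 and 630 CPM in thrombocytopenic libraries, against 708, 705 and 720 CPM in control libraries. Every thrombocytopenic library was lower than every control library, and libraries within a group differed by a coefficient of variation of 1.03% and 1.11%. The log2 fold change was -0.19 (SE 0.024, 95% interval -0.24 to -0.14; edgeR adjusted p = 3.37e-09), a level 1.14-fold lower. Epas1, which encodes HIF-2 alpha, fell to 1.30 ± 0.117 CPM against 1.95 ± 0.149 CPM (log2 fold change -0.58, SE 0.201, adjusted p = 0.0149). The call of Epas1 was lost without thrombocytopenic replicate 3 (-0.51, adjusted p = 0.0657) and without control replicate 3 (-0.54, adjusted p = 0.0603). Arnt, the partner of both, had 76.4 ± 1.59 CPM against 75.8 ± 0.547 CPM without passing the threshold, with a 95% interval of the log2 fold change of -0.06 to 0.08.

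The oxygen sensors changed in different directions. Egln3, an EGLN enzyme whose gene is a HIF target in many cells, had 3.00, 2.14 and 3.13 CPM in thrombocytopenic libraries, against 9.0, 6.14 and 6.93 CPM in control libraries. The groups did not overlap, but Egln3 varied by 19.4% within the thrombocytopenic group and 20.1% within the control group, on 64 to 112 and 199 to 224 counts per library. It was 2.60-fold lower (log2 fold change -1.38, SE 0.140, adjusted p = 6.96e-10). Egln1, the main HIF hydroxylase of normoxic cells and also a HIF target, had 35.3, 31.3 and 34.9 CPM in thrombocytopenic and 34.6, 35.0 and 33.6 CPM in control libraries. Its groups overlapped, and it did not pass the test, with a 95% interval of the log2 fold change of -0.12 to 0.08. Egln2, the third paralog and not known as a hypoxia-induced gene, rose to 69.3 ± 2.99 CPM against 57.7 ± 2.12 CPM (log2 fold change 0.26, SE 0.039, adjusted p = 2.10e-07).

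The paralogs were also set against each other within each library, a comparison chosen after their values were seen. The log2 ratio of Egln3 to Egln1 counts was -3.63 ± 0.206 in thrombocytopenic and -2.24 ± 0.287 in control libraries (SD, n = 3 each), a difference of -1.39. The ratio of Egln2 to Egln1 was 1.03 ± 0.157 against 0.75 ± 0.036 on the log2 scale, a difference of 0.29. Both had an exact permutation p of 0.1 (two-sided), the smallest that 3 against 3 libraries allow, and 0.1 after Benjamini-Hochberg adjustment over the 3 ratios computed. Neither can pass 0.05 in this design.

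Downstream of the hydroxylases, Vhl, which recognises hydroxylated HIF, fell to 33.6 ± 0.680 CPM against 41.6 ± 1.65 CPM (log2 fold change -0.31, SE 0.046, adjusted p = 1.30e-07). Hif1an, the asparaginyl hydroxylase that blocks the contact of HIF with its coactivators, rose by 0.14 (SE 0.039, adjusted p = 0.00236). Cited2, which competes with HIF for the same coactivators, rose to 57.7 ± 1.52 CPM against 43.9 ± 1.31 CPM (0.39, SE 0.041). The coactivator genes Ep300 and Crebbp did not pass. In the list of HIF subunits, oxygen sensors and degradation genes, 5 of 15 tested members were higher and 4 lower, with a median log2 fold change of 0.01. Over all genes tested 22.4% were higher and 22.7% lower.

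HIF elements were looked for in the 250 bases upstream of the RefSeq start sites (GRCm38.p6) because 4 of the target genes fell, while Ndrg1 and Adm rose. The motifs ACGTG and GCGTG were searched on both strands, and the palindrome CACGTG counts once for each strand. Of the 9 genes 8 had a promoter entry, matched by symbol, and Ndrg1 had none. In the first listed window 7 of these 8 held at least 1 match, the exception being Vegfa. RefSeq lists a further start site for Vegfa, downstream of the first on the minus strand. Its window held 2 matches but lies inside the gene rather than upstream of it, and is not counted among the 7. Among 32851 upstream windows of all genes 38.6% held at least 1 match, 16.7% at least 2 and 6.58% at least 3. A match describes these letters and not a bound site. Shown in lower case, 5′ to 3′ on the gene's strand with matches in capitals, are the 4 target genes that fell and Ankrd37, a target gene that did not pass the test. The windows are chr17:46032378-46032627 (minus strand) and chr17:46025164-46025413 (minus strand) for the first and second start sites of Vegfa, chr12:54203875-54204124 (minus strand) for Egln3, chr7:138909507-138909756 (minus strand) for Bnip3, chr10:59323046-59323295 (plus strand) for P4ha1 and chr8:45999851-46000100 (minus strand) for Ankrd37.
Vegfa, first start site: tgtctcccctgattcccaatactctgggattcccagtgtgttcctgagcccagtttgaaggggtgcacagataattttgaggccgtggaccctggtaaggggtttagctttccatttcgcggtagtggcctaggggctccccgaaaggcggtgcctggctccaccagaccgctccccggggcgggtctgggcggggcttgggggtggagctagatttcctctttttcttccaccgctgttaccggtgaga
Vegfa, second start site: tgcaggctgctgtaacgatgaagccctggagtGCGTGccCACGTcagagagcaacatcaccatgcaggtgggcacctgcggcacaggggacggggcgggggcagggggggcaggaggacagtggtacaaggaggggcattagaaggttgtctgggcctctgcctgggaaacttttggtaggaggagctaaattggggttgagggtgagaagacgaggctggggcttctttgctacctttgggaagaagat
Egln3: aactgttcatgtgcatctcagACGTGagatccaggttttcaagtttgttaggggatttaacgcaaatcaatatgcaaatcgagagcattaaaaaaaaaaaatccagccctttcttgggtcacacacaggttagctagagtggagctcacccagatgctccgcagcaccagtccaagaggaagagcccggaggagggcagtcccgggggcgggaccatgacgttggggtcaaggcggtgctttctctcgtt
Bnip3: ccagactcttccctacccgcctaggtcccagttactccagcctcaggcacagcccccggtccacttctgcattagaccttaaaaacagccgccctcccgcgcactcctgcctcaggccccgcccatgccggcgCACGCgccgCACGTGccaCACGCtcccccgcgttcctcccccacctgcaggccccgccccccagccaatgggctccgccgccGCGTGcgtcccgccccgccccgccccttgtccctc
P4ha1: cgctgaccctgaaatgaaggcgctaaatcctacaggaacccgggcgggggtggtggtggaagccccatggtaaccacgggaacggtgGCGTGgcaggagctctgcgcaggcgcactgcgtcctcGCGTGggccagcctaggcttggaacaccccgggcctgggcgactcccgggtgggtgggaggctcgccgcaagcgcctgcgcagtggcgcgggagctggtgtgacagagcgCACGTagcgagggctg
Ankrd37: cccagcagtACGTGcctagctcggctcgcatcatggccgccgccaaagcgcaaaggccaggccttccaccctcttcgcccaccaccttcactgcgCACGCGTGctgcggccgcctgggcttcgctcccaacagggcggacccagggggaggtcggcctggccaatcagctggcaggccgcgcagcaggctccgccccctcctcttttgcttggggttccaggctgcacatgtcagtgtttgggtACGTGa
For Vegfa, the gene that fell most, the window of the first start site held no match and that of the second held 2. The files give 1 count per gene and do not tell these start sites apart. The window of Egln3 held 1 match, that of P4ha1 3, that of Ankrd37 4 and that of Bnip3 5. Windows not shown held 2 matches for Adm, which rose, 2 for Egln1, which did not pass, and 3 for Hif1a. Absence of the motif says nothing about elements outside the window.

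Vegfa encodes vascular endothelial growth factor A, the main growth factor for blood vessel endothelium and a classical HIF target. It had 3.64, 2.85 and 3.72 CPM in thrombocytopenic libraries, against 20.3, 22.1 and 21.0 CPM in control libraries. These values rest on 136, 85 and 133 counts against 506, 796 and 603 counts. All thrombocytopenic libraries were far below all control libraries, and replicate 2 was the lowest. Vegfa was 6.17-fold lower (log2 fold change -2.63, SE 0.087, 95% interval -2.80 to -2.45; adjusted p = 6.83e-32). Ordered from the most negative log2 fold change, Vegfa stood at place 36 of 12488 genes.

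The other VEGF ligands had smaller log2 fold changes or missed the threshold. Vegfb, a ligand of Flt1, fell to 2.06 ± 0.266 CPM against 3.26 ± 0.662 CPM (log2 fold change -0.64, SE 0.163, adjusted p = 0.000975). Vegfc, a growth factor of lymphatic vessels, had 1.70 ± 0.048 CPM against 2.18 ± 0.432 CPM, short of the threshold (interval -0.72 to 0.03). Pgf, placental growth factor, had 0.341 ± 0.147 CPM against 0.310 ± 0.071 CPM, also short of it.

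The receptor genes moved in opposite directions. Kdr, the main signalling receptor for VEGF-A, had 19.4, 19.6 and 18.7 CPM in thrombocytopenic libraries, against 63.8, 62.4 and 63.3 CPM in control libraries. That is 3.28-fold lower with no overlap (log2 fold change -1.72, SE 0.046, adjusted p = 7.97e-36). Flt1, the receptor through which VEGF-A acts on monocytes, had 6.45, 8.58 and 7.49 CPM in thrombocytopenic libraries, against 4.70, 3.94 and 4.25 CPM in control libraries. Flt1 was thus higher in every thrombocytopenic library (log2 fold change 0.81, SE 0.111, adjusted p = 1.96e-08). The log2 ratio of Flt1 to Kdr counts was -1.37 ± 0.202 against -3.88 ± 0.111, a difference of 2.51, with the same smallest possible exact permutation p of 0.1. Nrp1, a coreceptor, fell by 0.12 on the log2 scale (SE 0.039, adjusted p = 0.00895) with overlapping groups, a call lost without thrombocytopenic replicate 1 (-0.092, adjusted p = 0.0845) and without control replicate 2 (-0.087, adjusted p = 0.117). Nrp2 had a level of 1249 ± 15.4 CPM against 1248 ± 16.4 CPM, with an interval of the log2 fold change of -0.05 to 0.05. Kdr is best known from endothelial cells. The other endothelial markers Pecam1 and Cdh5 were at 3.03 ± 0.224 and 1.07 ± 0.076 CPM in thrombocytopenic libraries, against 4.92 ± 0.442 and 1.82 ± 0.219 CPM in control libraries, and Tek had 2 counts in all thrombocytopenic libraries together and 0 in the controls. Of the 8 endothelial and stromal markers 3 were tested and all 3 were lower, beside 22.7% lower among all genes tested. The sum of the 8, Kdr included, was 22.6 to 24.0 CPM against 69.6 to 70.8 CPM. The part of endothelial RNA in the fall of Kdr was not tested.

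**Figure D2:**
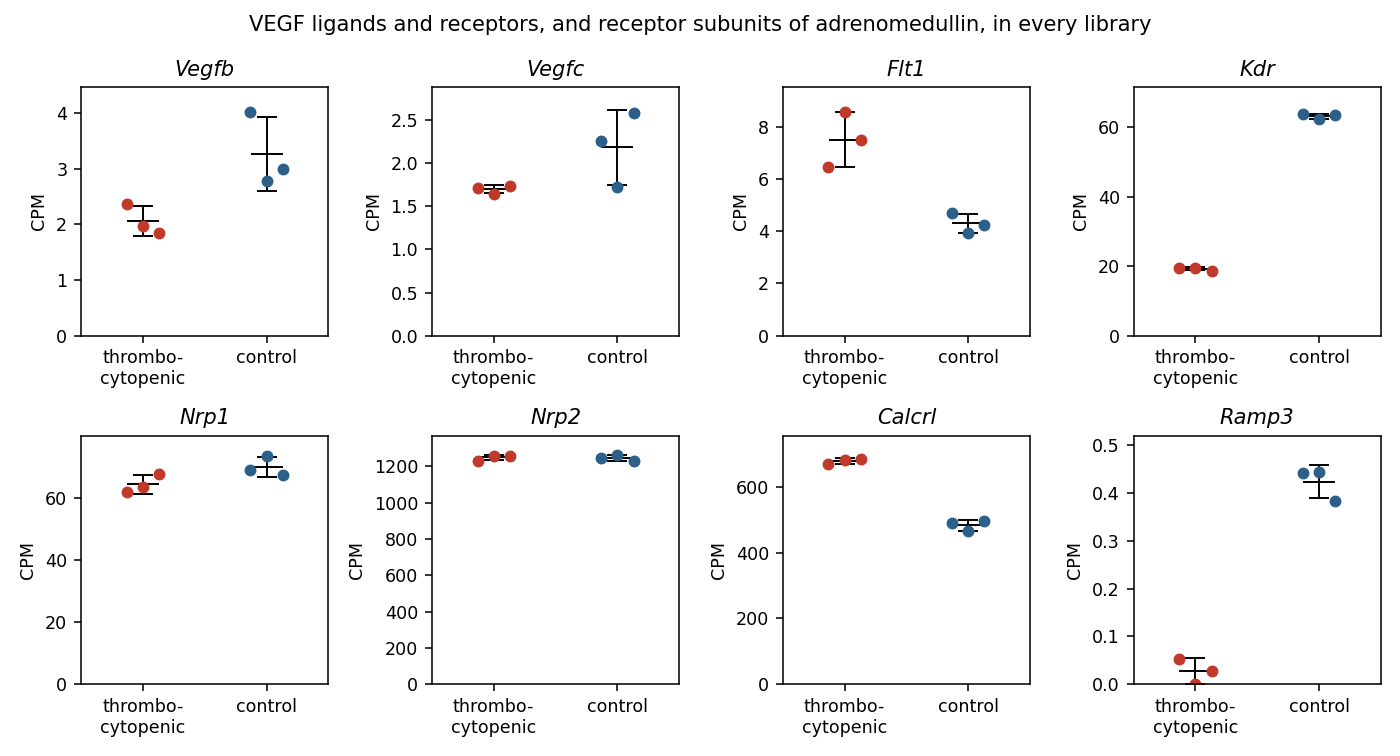
Level in CPM (each axis from 0) in every library of VEGF ligands and receptors and of the adrenomedullin receptor subunits Calcrl and Ramp3, with mean and SD of 3 libraries per group. Kdr, Vegfb and Ramp3 were lower and Flt1 and Calcrl higher in all thrombocytopenic libraries than in any control library.

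Adm encodes adrenomedullin, a peptide that widens blood vessels and is induced by HIF. It was near the limit of detection, with 30, 31 and 17 counts in thrombocytopenic libraries and 5, 20 and 11 counts in control libraries. These equal 0.803, 1.04 and 0.475 CPM against 0.201, 0.555 and 0.383 CPM, and the groups overlapped because thrombocytopenic replicate 3 was below control replicate 2. The log2 fold change of 0.93 (SE 0.351, 95% interval 0.22 to 1.63) had an adjusted p of 0.0266, and the call was lost without thrombocytopenic replicate 1 (0.89, adjusted p = 0.0761) or 2 (0.68, adjusted p = 0.17), without control replicate 1 (0.67, adjusted p = 0.148) or 3 (0.91, adjusted p = 0.0739), and with DESeq2 (0.98, adjusted p = 0.0797). Calcrl, the receptor for adrenomedullin, was abundant and rose to 678 ± 9.05 CPM against 483 ± 16.4 CPM (log2 fold change 0.49, SE 0.026, adjusted p = 7.41e-23). Of the Ramp subunits that set its ligand preference, Ramp3 had 2, 0 and 1 counts in thrombocytopenic libraries, against 11, 16 and 11 counts in control libraries. The ratio of the summed rates was 14.6-fold lower, with a 95% counting interval of 4.64 to 74.0 that covers counting error only, and Ramp3 passed the filter on low counts through the control libraries alone. Ramp1 had 0.416 ± 0.104 CPM against 0.461 ± 0.126 CPM and missed the threshold, and Ramp2 had 1 count in all.

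Ndrg1, a stress-induced gene that limits cell growth and is raised by HIF in many cells, rose where Vegfa fell. It had 20.4, 21.7 and 20.3 CPM in thrombocytopenic libraries, against 12.3, 11.1 and 12.1 CPM in control libraries. All thrombocytopenic libraries were higher than all controls, and the rise was 1.76-fold (log2 fold change 0.82, SE 0.066, adjusted p = 9.21e-16). Its paralog Ndrg3 had 25.05 ± 0.069 CPM against 24.8 ± 0.208 CPM (interval of the log2 fold change -0.09 to 0.12). Ndrg2 and Ndrg4 were too low to test, with 3 and 26 counts in thrombocytopenic libraries and 15 and 26 counts in control libraries.

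Bnip3, a receptor on mitochondria that marks them for removal by autophagy, had 34.3, 32.0 and 35.8 CPM in thrombocytopenic libraries, against 41.9, 38.1 and 41.4 CPM in control libraries. The groups came close but did not overlap, and the fall was 1.18-fold (log2 fold change -0.24, SE 0.049, adjusted p = 3.84e-05). Its relative Bnip3l, also a mitophagy receptor and HIF target, fell by 0.15 (SE 0.043, adjusted p = 0.00325) to 40.5 ± 0.771 CPM against 45.0 ± 1.13 CPM. Across the list of mitophagy receptors and kinases 2 of 8 tested members were higher and 2 lower, near the 22.4% higher and 22.7% lower of all genes tested.

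P4ha1 encodes the catalytic subunit of collagen prolyl 4-hydroxylase, an enzyme of the endoplasmic reticulum that does not act on HIF. It had 144, 137 and 141 CPM in thrombocytopenic libraries, against 180, 175 and 184 CPM in control libraries. Libraries within a group varied by 2.40% and 2.49%, and the groups lay apart. The fall was 1.28-fold (log2 fold change -0.35, SE 0.030, adjusted p = 9.86e-15). P4hb, its partner subunit and also protein disulfide isomerase, fell by 0.20 (SE 0.025, adjusted p = 6.95e-10), while the isoform gene P4ha2 had 3.26 ± 0.425 CPM against 3.69 ± 0.524 CPM and missed the threshold (interval -0.48 to 0.08). Of the collagen prolyl and lysyl hydroxylase list 3 of 6 tested members (50%) were lower and none higher, close to the 45.1% of all genes that passed in either direction.

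Ankrd37, a small ankyrin repeat gene induced by HIF-1, had 4.66, 3.42 and 3.97 CPM in thrombocytopenic libraries, against 3.29, 4.47 and 4.08 CPM in control libraries. The groups overlapped fully. With a variation of 15.5% and 15.2% within the groups, its log2 fold change of 0.02 had a 95% interval of -0.25 to 0.28. Annotated exons of Ankrd37 overlap those of Ufsp2 and Lrp2bp on the other strand in GENCODE M21, and Ufsp2 had 1114 to 1756 counts in the 6 libraries. The sources used here do not say whether strand entered the counting, and the counts of Ankrd37 are uncertain for this reason. The other genes whose exons overlap those of Hif1a, Ndrg1 or Bnip3 had at most 4 counts in any library, apart from Gm49321. Gm49321 overlaps Hif1a on the same strand, and its name is not among the counted genes. Its part in the counts of Hif1a was not tested. Vegfa, Egln1, Egln3, Adm and P4ha1 have no overlapping exons in that annotation.

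**Figure D3:**
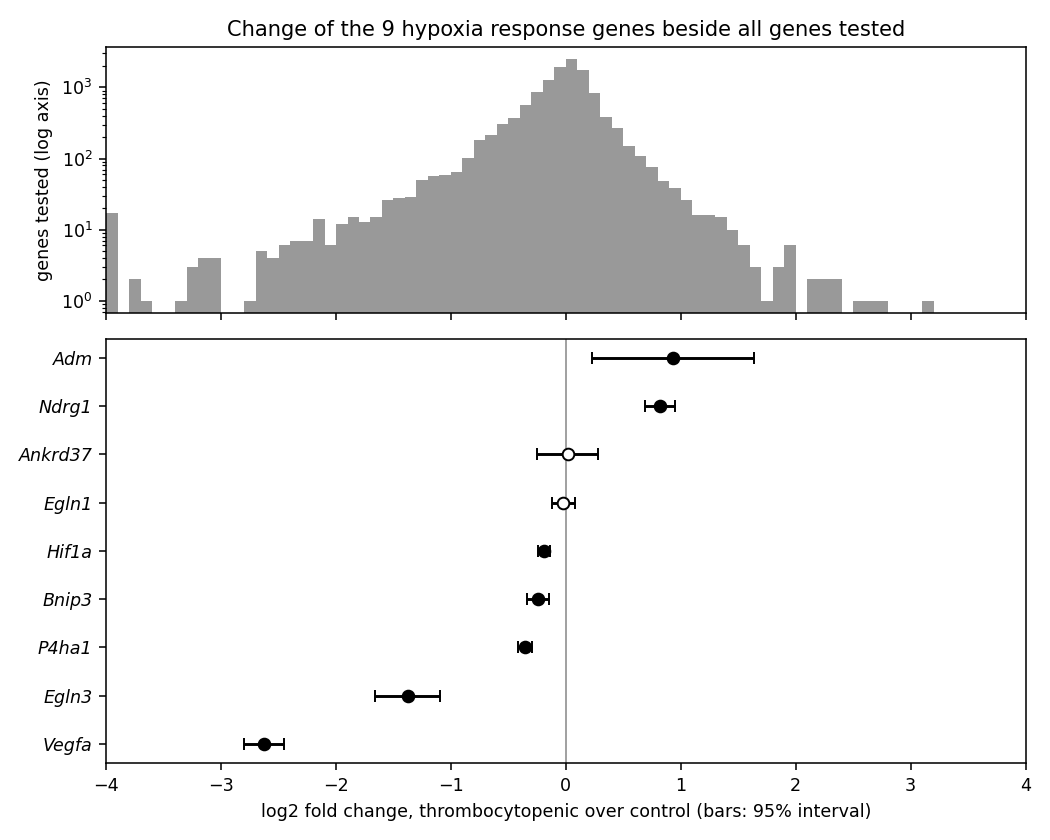
Above, the number of genes (log axis) by log2 fold change, thrombocytopenic over control, for all 12488 genes tested, with values beyond the axis collected in the end bins. Below, the 9 genes with 95% intervals, filled where the adjusted p was under 0.05. Vegfa at -2.63 and Egln3 at -1.38 lie in the lower tail, and Ndrg1 at 0.82 in the upper tail.

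Other HIF targets outside glycolysis also changed in both directions. Of 28 further tested genes of that list 8 were higher and 9 lower, with a median log2 fold change of -0.03. The shares over all genes tested were 22.4% higher and 22.7% lower. Cxcr4, a chemokine receptor, had 0.670, 0.704 and 0.643 CPM in thrombocytopenic libraries, against 11.05, 9.99 and 10.1 CPM in control libraries. It was 15.4-fold lower (log2 fold change -3.94, SE 0.143, adjusted p = 5.07e-30). Bhlhe40, a transcriptional repressor, fell to 8.50 ± 0.279 CPM against 22.5 ± 1.55 CPM (-1.41, SE 0.070). Lox, lysyl oxidase, rose to 52.2 ± 2.44 CPM against 27.5 ± 1.87 CPM (0.92, SE 0.049). Wsb1, a ubiquitin ligase subunit, rose to 220 ± 2.56 CPM against 151 ± 1.41 CPM (0.54, SE 0.029). Ero1a, an oxidase of protein folding, and Kdm3a, a histone demethylase, both widely used as hypoxia reporters, did not pass, with intervals of -0.08 to 0.05 and -0.06 to 0.12.

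Among the glycolytic HIF targets 11 of 20 genes were lower and 3 higher, with a median log2 fold change of -0.09. Over all genes tested 22.7% were lower and 22.4% higher. Hk2, hexokinase 2, fell to 92.9 ± 4.57 CPM against 135 ± 8.37 CPM (-0.55, SE 0.040), and Aldoc, a low-level aldolase, rose to 1.15 ± 0.164 CPM against 0.664 ± 0.148 CPM (0.77, SE 0.269, adjusted p = 0.0165). The call of Aldoc was lost with DESeq2 (0.78, adjusted p = 0.0554), without thrombocytopenic replicate 3 (0.64, adjusted p = 0.0994) and without control replicate 1 (0.70, adjusted p = 0.0515) or 3 (0.65, adjusted p = 0.0809).

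**Figure D4:**
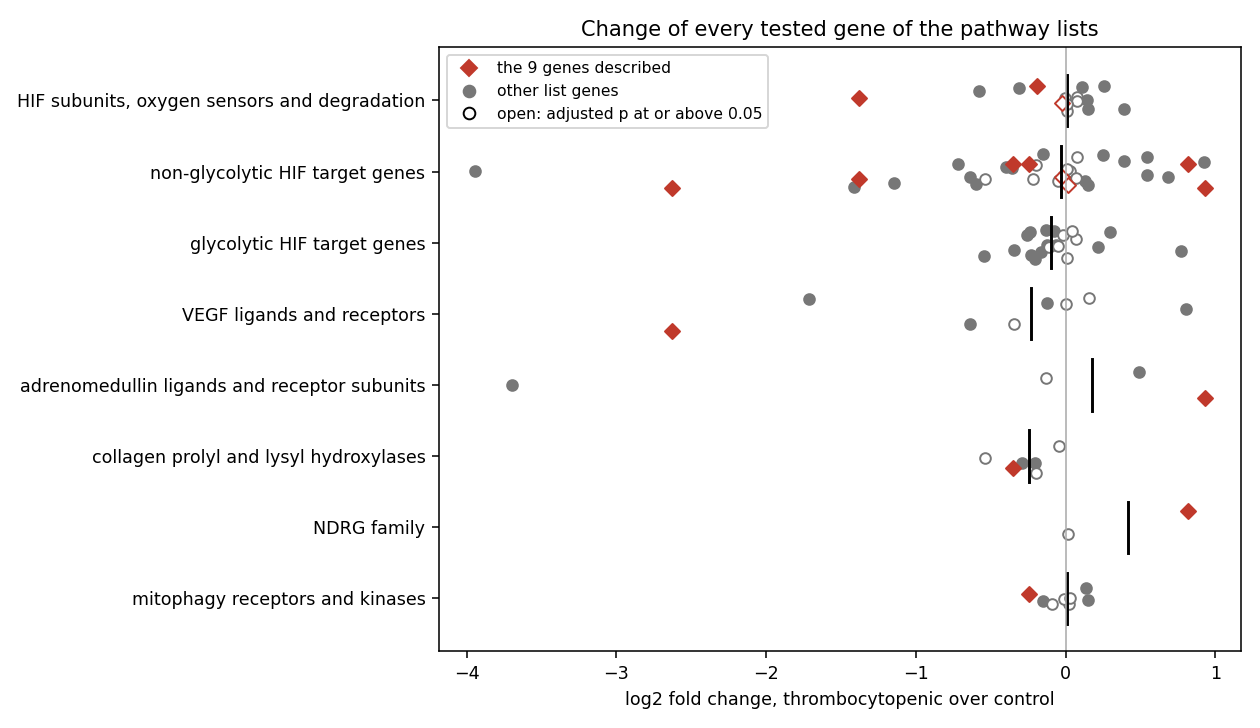
Log2 fold change, thrombocytopenic over control, of every tested gene of the 8 pathway lists, with the 9 described genes as red diamonds, open symbols for an adjusted p at or above 0.05 and a black bar at each list median. Lists share genes, and the point of Ramp3 at -3.70 rests on 3 counts in the thrombocytopenic libraries, so its place depends on the fit's prior count.

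Genes with the profile most like those of Vegfa and Ndrg1 were sought by Euclidean distance between log2 CPM profiles over the 6 libraries, each centred on its mean, among 10248 candidates. With 2 groups this mainly finds genes with a similar difference between the groups. Nearest to Vegfa was Plpp3, a lipid phosphatase gene, at a distance of 0.165, with 10.003 ± 0.948 CPM in thrombocytopenic and 58.7 ± 1.58 CPM in control libraries. The mitochondrial ribosomal RNA mt-Rnr2 (0.341), Tmem86a (0.352) and Gatm, an enzyme gene of creatine synthesis (0.408), followed. The nearest to Ndrg1 were the lectin gene Clec4a2 (0.076), Fgd4 (0.086), Tnip3 (0.094), whose product restrains NF-kB signalling, and Bmt2 (0.1001). None of these 8 is in the pathway lists used here.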

How the data were processed

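Polyadenylated RNA of 6 monocyte libraries was sequenced from stranded libraries that mark the second strand with dUTP, per the labels' protocols. The authors deposited raw counts per gene, whole numbers that were neither normalized nor pooled, in 1 table per library. The submitters' processing notes name Salmon 1.5.2, STAR 2.7.9a, featureCounts, Subread 2.0.1 and fastp 0.23.1. The sources used here do not give what each did, the genome build, the annotation or the strand setting.

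Counts were compared as deposited with edgeR 4.0.16 in R 4.3.3, with TMM factors, filterByExpr (minimum count 10, minimum total 15), a robust quasi-likelihood fit with group as the only term, a two-sided test and Benjamini-Hochberg adjustment over 12488 genes at 0.05. Standard errors are the size of the log2 fold change over the square root of F, and 95% intervals use the t distribution with the fit's degrees of freedom. CPM values are scaled by TMM factors, except marker sums and the filter, which use library totals. Profiles used a prior count of 2. Counts under about 0.305 CPM in a library fall below the filter's minimum, so precision is low there, and counting intervals cover counting error only. Gene lengths were not given, so levels are not corrected for length. Count ratios between genes were therefore compared only between the groups, and marker sums weigh genes by their counts. The steps were tested on simulated data. Members and lists were chosen with earlier results of these data known. Named genes are the 9 members, up to 5 called genes per list with an absolute log2 fold change of at least 0.5, paralogs and partners, and the 4 nearest profiles (mean of at least 1 CPM, no predicted gene names). A gene named by this rule is not reported here. Others were chosen after their values were seen. Alternatives were other scalings and filters, no robust option, DESeq2 1.42.0, limma-voom (limma 3.58.1), a replicate block and leaving out each library. Promoter sequences are RefSeq's (GRCm38.p6) and were matched by symbol only.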

Additional observations from a re-analysis of the deposited data

How the results depend on the processing

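Vegfa, Hif1a, Ndrg1, Egln3, Bnip3 and P4ha1 kept their direction and their call in all 15 alternatives, with log2 fold changes of Vegfa between -2.69 and -2.52 and of Egln3 between -1.51 and -1.22. Adm lost its call with DESeq2 (0.98, adjusted p = 0.0797) and, leaving out 1 library each, ranged from 0.67 to 1.34 and lost it in 4 of 6 cases; under the stricter filter (1 CPM in 3 libraries) it was not tested. Egln1 ranged from -0.052 to 0.029 and Ankrd37 from -0.11 to 0.12 when 1 library was left out, and Ankrd37 was at -0.0065 with upper quartile factors; none of these passed the test. The count of adrenomedullin genes called higher was 1 with DESeq2 and with the stricter filter, under which 0 were lower because fewer genes were tested, and 1 to 2 when 1 library was left out. The count of mitophagy genes called higher was 1 with DESeq2 and with upper quartile factors and 1 to 2 when 1 library was left out. Wherever it was 1, Optn of that list had lost its call. Of 47 further listed genes that passed, 9 lost their call in at least 1 alternative, and Ramp3 was not tested under the stricter filter. With the replicate number as a block 5402 genes passed in place of 5626, and 7 of the 9 genes passed, the same number. Same-numbered libraries did not deviate together (correlations of -0.038, -0.089 and -0.013 over 12488 genes, and 0 of 6 libraries correlated best with their own number). No effect shared by number was seen, but these correlations cannot tell whether same-numbered libraries were collected or handled together. Depth limits Adm, with 78 counts in thrombocytopenic and 36 in control libraries, and Ramp3, with 3 and 38.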

Other observations

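Further HIF targets, chosen after their values were seen, also moved in both directions. The lipid droplet genes Plin2 and Hilpda were lower, Plin2 at 752 ± 9.96 CPM in thrombocytopenic and 989 ± 20.2 CPM in control libraries (SD, n = 3 each; log2 fold change -0.40) and Hilpda at 3.13 ± 0.282 CPM against 5.12 ± 0.279 CPM (-0.72). Mxi1, a repressor related to the Myc network, was at 11.3 ± 0.157 CPM against 17.6 ± 0.318 CPM (-0.64). Edn1, the gene of the vessel-constricting peptide endothelin 1, was higher at 34.3 ± 0.745 CPM against 21.4 ± 0.707 CPM (0.68), and Ddit4, an inhibitor of mTORC1, at 2.94 ± 0.093 CPM against 2.05 ± 0.434 CPM (0.54). All 5 passed edgeR's quasi-likelihood test, with adjusted p-values between 3.84e-20 and 0.00556, but the call of Ddit4 was lost without control replicate 2 (0.36, adjusted p = 0.109). Pfkfb3 and Pfkfb4, enzymes that set the pace of glycolysis, rose by 0.22 and 0.30 on the log2 scale, while Ldha, lactate dehydrogenase A, fell by 0.21. In the whole glycolytic list 3 of 20 genes were higher and 11 lower, beside 22.4% and 22.7% of all genes tested.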
